A study of Mus musculus with 6 samples.

Results

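Cartilage genes were followed in MSCs (mesenchymal stromal cells, which attach to the dish and can give rise to osteoblasts, chondrocytes or adipocytes) from mouse alveolar bone, the part of the jaw around the tooth roots. The group comprised 10 genes, taken by name from the 54532 genes of the deposited count table: the SOX transcription factor genes Sox9, Sox5 and Sox6, the collagen genes Col2a1, Col11a1 and Col11a2, the proteoglycan genes Acan and Prg4, the link protein gene Hapln1 and the matrix protein gene Comp. All 10 names were found once each. RNA had been sequenced from 3 wild-type (WT) cultures and 3 cultures from mice lacking Ccrl2 (Ccrl2-KO, here KO), an atypical chemokine receptor that binds chemerin. Both genotypes shared the same described condition, inflammation induced with TNFα during osteogenic induction. The columns of the count table are marked Ctrl in both genotypes, and no label says whether that mark means cultures without TNFα. The replicates are called biological, but the labels give neither age, sex nor strain, nor the way the Ccrl2 allele was made, nor whether each culture came from its own mouse. The p-values may therefore cover only the spread between cultures.

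Cartilage forms when mesenchymal cells switch on SOX9, a high-mobility-group transcription factor that binds the enhancers of cartilage matrix genes. SOX5 and SOX6 belong to another branch of the family, have no activation domain of their own and assist SOX9 at those enhancers. The matrix that follows is a network of collagen II fibrils with collagen XI inside them, filled with aggrecan that is anchored to hyaluronan by a link protein. Alveolar bone forms directly from mesenchyme of neural crest origin, without a cartilage template, although stromal cells of the jaw and the periodontal ligament can be driven to form cartilage in culture.

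Library totals lay between 16114974 and 18616433 counts. Ccrl2 itself had 4, 3 and 0 counts in WT replicates 1 to 3 and 0 in each KO library, so it gave little check of the genotype labels. KO replicate 2 stood apart, with counts in 16428 genes (18928 to 19372 elsewhere) and a mitochondrial share of 2.32% of counts (1.09% to 1.56% elsewhere). All 11 stromal markers were tested (Prrx1, Pdgfra, Pdgfrb, Thy1, Eng, Nt5e, Cd44, Itgb1, Ly6a, Lepr and Cxcl12). Their summed level was 6595 to 7173 CPM (the share of the library total, scaled as in edgeR) in WT and 6788 to 7673 in KO. Itgb1, an integrin chain that most cell types make, gave much of this sum (3062 ± 242 CPM in WT and 3556 ± 251 CPM in KO, SD, n = 3), and Lepr (7.61 CPM), Nt5e (13.2 CPM) and Cxcl12 (32.0 CPM) were low in WT.

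The cultures did not carry the transcripts of mature cartilage. Of 12 chondrocyte markers only Sox9 and Col2a1 had enough counts to be tested. Col9a1, Matn1 and Snorc, genes of the cartilage matrix, were at 0 counts in every library, and Acan and Ucma had at most 3 counts in any. The 10 genes are therefore described as transcripts of stromal cultures that are named for their roles in cartilage. Their levels per kb of transcript (CPM divided by the deposited gene length) spanned a wide range. In WT the order was Col11a1 at 56.2 ± 1.63 CPM per kb (mean ± SD, n = 3), Sox9 at 7.15 ± 0.79, Col2a1 at 4.43 ± 0.356, Comp at 2.77 ± 0.402, Sox6 at 1.79 ± 0.14 and Prg4 at 1.57 ± 0.287. Sox5 (0.381), Col11a2 (0.27), Hapln1 (0.0565) and Acan (0.00798 CPM per kb) followed. In WT only the neighbours Sox6 and Prg4 overlapped between libraries. Col11a1 stood above 94.9% of the tested genes, Sox9 above 60.8% and Sox5 above 8.28% on this per-kb scale. In KO the order changed. Col11a1 came first again at 34.5 ± 4.08 CPM per kb, and Sox9 (2.75 ± 0.0639), Col2a1 (2.63 ± 0.636) and Sox6 (2.57 ± 0.229) had overlapping neighbours. Prg4 (0.313), Comp (0.233) and Sox5 (0.189) followed, with Prg4 overlapping Comp and Comp overlapping Sox5. The deposited length equals the exons of all annotated transcripts merged for 9 of the 10 genes, so the per-kb level of genes with many transcripts, such as Sox5 and Sox6, is a low estimate if the cells use short ones.

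Setting KO against WT shows which of these transcripts differ between the genotypes. Of the 10 genes, 5 were lower in KO (Comp, Sox9, Prg4, Col11a1 and Col2a1), none was called higher, 3 were tested and not called (Sox5, Sox6 and Col11a2), and Acan and Hapln1 were too low to test. Called means an adjusted p under 0.05 in edgeR's quasi-likelihood test over all 13705 tested genes. Over all tested genes 366 were called, a share of 2.67%, with 2.31% lower and 0.365% higher in KO. The median log2 fold change was -1.22 over the 8 tested members and 0.02 over all tested genes. Since genes with low counts enter the test through whichever group is high, Col11a2 entered through its 3 WT libraries, with only 1 KO library at the minimum of 0.592 CPM, and Comp had 3 WT and 2 KO libraries at that level. In all 8 tested members the 3 WT and 3 KO libraries did not overlap in CPM, against 11.0% of tested genes with all KO libraries lower and 9.90% with all KO libraries higher. The members were chosen with earlier results of these data known, so these shares and medians only describe them and are no test. Without KO replicate 2, 7 of the members were called, 6 lower and Sox6 higher. DESeq2 called all 8 that were tested, 7 lower and Sox6 higher. Both settings also called more of all tested genes than the 366 above. The counts were 610 of 14096 genes without KO replicate 2 and 656 of 13705 with DESeq2. Whether the added calls are particular to the members was not tested.

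Transcripts of macrophages moved in the same direction. Of 15 macrophage markers 13 were tested and 12 were called lower in KO, with Mrc1, Lyz2 and Mpeg1 at the smallest p. Their summed level was 364.7 to 417.7 CPM in WT and 98.41 to 105 CPM in KO, and the median log2 fold change over the 13 was -2.14. Of 10 osteoblast markers 6 were tested and 3 were called higher in KO in edgeR, Sp7 (adjusted p = 0.00609), Ibsp (adjusted p = 0.0133) and Alpl (adjusted p = 0.0254). Spp1 (0.18), Runx2 (-0.05) and Col1a1 (-0.33 on the log2 scale) were not called. The summed level of the 10, most of it Col1a1, was 34965 to 42997 CPM in WT and 23370 to 40647 CPM in KO. For Ibsp, leaving out WT replicate 2 (adjusted p = 0.0668) or KO replicate 1 (adjusted p = 0.0502) ended the call. The Alpl call ended with limma-voom (adjusted p = 0.0541) and without any one library other than KO replicate 2 (adjusted p from 0.0788 to 0.152, edgeR). Of 5 endothelial markers only Kdr was tested, and edgeR did not call it, with summed levels of 2.85 to 4.96 CPM in WT and 0.74 to 2.84 CPM in KO. No epithelial marker of 4 was tested, and Epcam and Krt5 were at 0. The part that these shifts in markers of other cells play in the values below was not tested. Fewer cells of a type and less RNA per cell cannot be told apart in bulk RNA. Of the 11 stromal markers edgeR called 1, Thy1 (log2 fold change -0.81 ± 0.10, SE; adjusted p = 0.00141, edgeR), with 4 at an unadjusted p under 0.05. DESeq2 called 2, Thy1 and Pdgfra. Pdgfra was lower in every KO library (-0.44 ± 0.11, SE; adjusted p = 0.0799, edgeR). Without KO replicate 2, edgeR called Ly6a lower as well as Thy1. Ly6a stood at 659 CPM in that library and at 349 and 334 CPM in KO replicates 1 and 3.

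**Figure D1:**
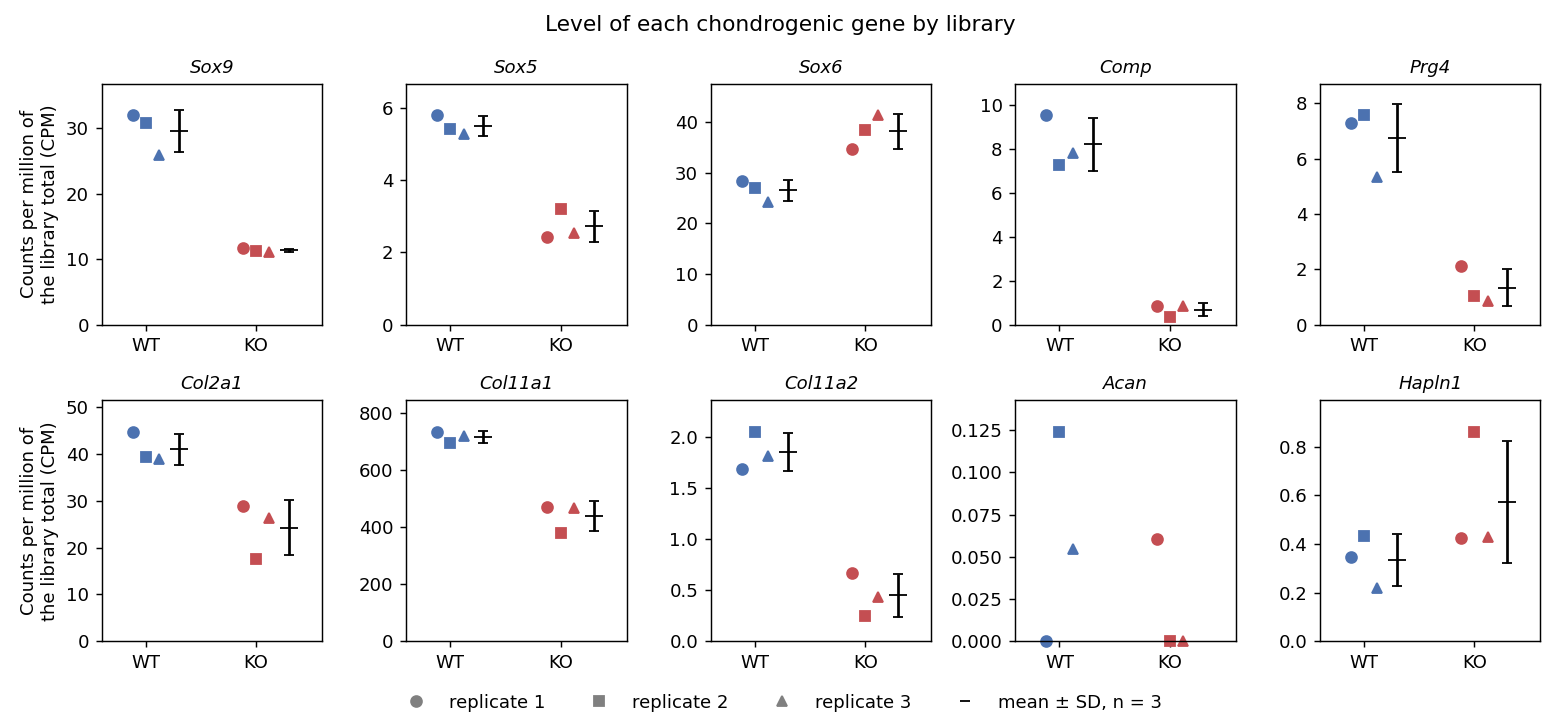
Level of each of the 10 genes in CPM of the library total (vertical axis, linear from 0) in the 3 WT and 3 KO libraries, with the symbol marking the replicate number and black marks the mean ± SD (not drawn for Acan, which had at most 2 counts). The WT and KO points are separate in the 8 tested genes, with Sox6 higher in KO and the other 7 lower, and they overlap for Acan and Hapln1.

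Of the 3 SOX genes, Sox9 alone was called in the main edgeR fit, and it fell in KO. The gene (ENSMUSG00000000567, chromosome 11, 112782224 to 112787760, plus strand, GRCm38) had 553, 497 and 472 counts in WT replicates 1 to 3 and 193, 183 and 208 in KO replicates 1 to 3. Scaled by library total, this was 29.6 ± 3.26 CPM in WT and 11.4 ± 0.264 CPM in KO (SD, n = 3 per group). Every KO library lay below every WT library. The coefficient of variation was 2.32% in KO and 11.0% in WT. The KO value is smaller than counting error alone gives on average at these counts, so it is not read as a difference in spread. The level was 2.60-fold lower in KO, with a log2 fold change of -1.40 ± 0.15 (SE; adjusted p = 0.000529, edgeR). It was called under each of the 15 alternatives, between -1.50 and -1.34. No other gene of the table overlaps Sox9. Of the 11 tested genes within 2000000 bases of it 0 were called, too few genes to read beside the 2.67% called over all tested genes. The same window held 2 called of 102 tested genes around Comp (Csgalnact1 and Lrrc25). It held 1 of 49 around Col2a1, 1 of 7 around Col11a1 and 1 of 118 around Col11a2. Around Sox5, Sox6, Prg4, Acan and Hapln1 it held 0.

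Sox5 stood lower and Sox6 higher in KO, and neither was called. Sox5 (chromosome 6, 143828425 to 144781977, minus strand), which acts beside SOX9, had 100, 87 and 96 counts in WT replicates 1 to 3 and 40, 52 and 47 in KO. In CPM this was 5.48 ± 0.275 in WT and 2.72 ± 0.426 in KO (SD, n = 3), with no overlap. Its log2 fold change was -1.03 ± 0.25 (SE; adjusted p = 0.0622, edgeR). Sox5 passed without KO replicate 2 (-1.17, adjusted p = 0.0145), with DESeq2 (-1.04, adjusted p = 0.0125) and in edgeR without the filter on low counts (-1.03, adjusted p = 0.0332).

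Sox6 (chromosome 7, 115470872 to 116038796, minus strand), the close relative of Sox5, was the only tested member with a higher level in KO. It had 490, 435 and 443 counts in WT and 572, 624 and 770 in KO replicates 1 to 3. The level was 26.6 ± 2.08 CPM in WT and 38.1 ± 3.39 CPM in KO (SD, n = 3), again with no overlap. Its log2 fold change was 0.50 ± 0.13 (SE; adjusted p = 0.0840, edgeR). Sox6 passed without KO replicate 2 (0.49, adjusted p = 0.0416), with DESeq2 (0.50, adjusted p = 0.0254) and without the filter (0.50, adjusted p = 0.0352). Antisense transcripts overlap both genes, but none of these had more than 5 counts in any library.

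Promoter sequences were at hand for 6 of the 10 genes (Sox5, Sox6, Col11a1, Col11a2, Acan and Hapln1), as 250 bases before and 50 bases after the RefSeq start on GRCm38.p6. They were searched on both strands for SOX words, 7 bases that begin with A or T, have A or T again in second place, go on with CAA, then A or T, and end with G (8 words), and for the GC box GGGCGG, which reads as CCGCCC on the other strand. A SOX word occurs in 24.6% and a GC box in 35.7% of all 32851 such promoters. Sox6, the member that stood higher in KO, is shown at its first RefSeq start, 52 bases from the start of the gene in the deposited table, at chr7:116038695-116038994 on the minus strand. Capitals mark the SOX word.
Sox6: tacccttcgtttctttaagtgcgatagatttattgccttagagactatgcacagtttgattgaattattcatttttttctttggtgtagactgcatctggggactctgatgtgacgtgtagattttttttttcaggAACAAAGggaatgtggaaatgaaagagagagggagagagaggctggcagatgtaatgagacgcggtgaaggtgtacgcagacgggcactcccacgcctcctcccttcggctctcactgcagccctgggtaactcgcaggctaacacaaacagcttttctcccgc
The word AACAAAG begins 114 bases before the start base, and no GC box was found in this window. The windows at the other 5 RefSeq starts of Sox6 held 1 to 4 SOX words each, and the single Sox5 window, at a start inside the gene, held none of these words.

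Because a ratio of genes within 1 library does not depend on how libraries are scaled, the SOX genes were also compared with each other in each library, a comparison chosen after their values were seen. Per kb of transcript, Sox6 stood at 0.247, 0.244 and 0.262 of Sox9 in WT replicates 1 to 3 and at 0.826, 0.951 and 1.03 in KO replicates 1 to 3. On this per-kb scale Sox9 stood several times above Sox6 in every WT library and near Sox6 in KO. That scale divides Sox6 by 14832 bases of merged exons and Sox9 by 4135 bases. In raw counts Sox6 was somewhat below Sox9 in every WT library and above it in every KO library. Only the change of the ratio between genotypes does not depend on these lengths. Sox6 per Sox5 was 4.69 ± 0.194 in WT and 13.8 ± 2.12 in KO (SD, n = 3), and Sox5 per Sox9 was 0.0536 ± 0.0043 and 0.0688 ± 0.0115. WT and KO libraries were separate in each of these ratios, and an exact two-sided permutation test gave p = 0.10 for each, the smallest that 3 against 3 libraries allow. For both Sox6 ratios this outcome was fixed by the levels above, with Sox6 higher and Sox9 and Sox5 lower in every KO library. The test therefore adds nothing to those levels. For Sox5 per Sox9 the gap was narrow, from 0.0585 in WT replicate 3 to 0.0596 in KO replicate 1, which had 40 Sox5 counts.

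**Figure D2:**
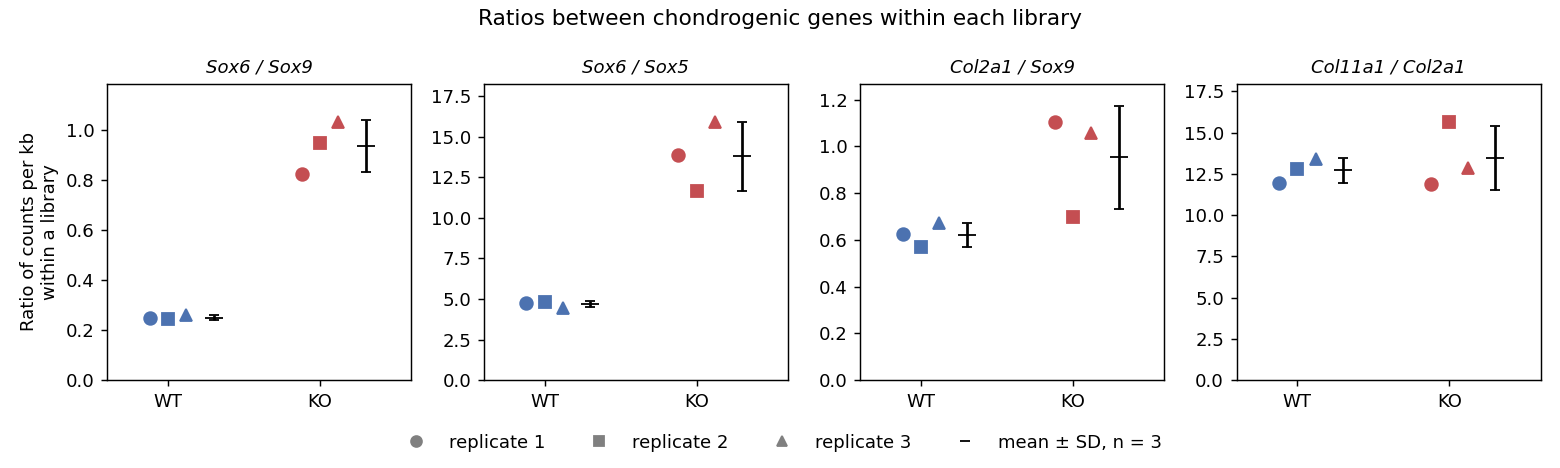
Ratio of counts per kb of transcript between pairs of genes within each library (vertical axes, linear from 0), for 3 WT and 3 KO libraries, with black marks for mean ± SD. Sox6 per Sox9 has a mean of 0.251 in WT and 0.936 in KO and Sox6 per Sox5 of 4.69 and 13.8, without overlap, while Col11a1 per Col2a1 overlaps between the groups.

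Comp showed the widest difference of the group. It encodes cartilage oligomeric matrix protein, a pentameric thrombospondin of cartilage, tendon and ligament that binds collagen fibrils. The gene (ENSMUSG00000031849, chromosome 8, 70373558 to 70382066, plus strand) had 165, 117 and 143 counts in WT replicates 1 to 3 and 14, 6 and 16 in KO. The level was 8.22 ± 1.19 CPM in WT and 0.692 ± 0.279 CPM in KO (SD, n = 3). The lowest WT library stood at 7.26 CPM and the highest KO library at 0.859 CPM. Comp was 11.9-fold lower in KO, with a log2 fold change of -3.57 ± 0.33 (SE; adjusted p = 0.000336, edgeR), which ranged from -3.76 to -3.28 over the alternatives and was called under all 15. No other gene of the table overlaps it. With 14, 6 and 16 counts in KO, the size of this fold rests on few counts, although the direction was the same in all libraries.

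Prg4, which encodes the joint lubricant lubricin, also fell. The gene (chromosome 1, 150449412 to 150466165, minus strand) had 126, 122 and 97 counts in WT and 35, 17 and 16 in KO replicates 1 to 3. This was 6.73 ± 1.23 CPM in WT and 1.34 ± 0.678 CPM in KO (SD, n = 3), 5.02-fold lower in KO. KO replicate 1, at 2.12 CPM, was the highest of its group and still below the lowest WT library at 5.32 CPM. The log2 fold change was -2.35 ± 0.36 (SE; adjusted p = 0.00598, edgeR), between -2.85 and -2.10 over the alternatives, and was called under all 15. The last 524 bases of Prg4 overlap those of Tpr, a nuclear pore gene on the other strand with 2798 to 3471 counts per library, and strand is not stated to have been kept. Tpr itself had a log2 fold change of 0.01 ± 0.10 (SE; adjusted p = 0.983, edgeR).

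Col11a1 and Col2a1 fell by less, and they were the members with the most counts in WT. Col11a1 encodes the first chain of collagen XI, which lies inside collagen II fibrils and limits their width, and is also made outside cartilage. The gene (chromosome 3, 114030540 to 114220718, plus strand) had 12705, 11190 and 13127 counts in WT and 7796, 6161 and 8706 in KO replicates 1 to 3. The level was 717 ± 20.8 CPM in WT and 440 ± 51.9 CPM in KO (SD, n = 3), 1.63-fold lower in KO. The WT libraries lay within a coefficient of variation of 2.91%, and KO replicate 2 was the lowest KO library at 380 CPM. The log2 fold change was -0.73 ± 0.11 (SE; adjusted p = 0.00653, edgeR). Leaving out WT replicate 1 (-0.70, adjusted p = 0.0637) or WT replicate 2 (-0.75, adjusted p = 0.0552) ended the call, and without KO replicate 2 the value was -0.64 (adjusted p = 0.000458).

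Col2a1, the gene of the main collagen of cartilage, was at the edge of the threshold. It (chromosome 15, 97975602 to 98004695, minus strand) had 773, 633 and 709 counts in WT and 476, 286 and 491 in KO replicates 1 to 3. The level was 41.0 ± 3.29 CPM in WT and 24.3 ± 5.87 CPM in KO (SD, n = 3), 1.69-fold lower in KO, with the KO libraries spread from 17.6 to 28.8 CPM below the lowest WT library at 38.9 CPM. The log2 fold change was -0.78 ± 0.18 (SE; adjusted p = 0.0468, edgeR). With library totals alone as the scale the value was -0.75 (adjusted p = 0.0513). The call also ended with upper-quartile scaling (adjusted p = 0.0596), with no robust moderation (adjusted p = 0.0542) and, by a narrow margin, with the stricter filter. Leaving out any one WT library or KO replicate 3 ended it too (adjusted p from 0.116 to 0.251). Without KO replicate 2 the value was -0.60 (adjusted p = 0.00818). The counts are per gene, so the splice forms of Col2a1 used by progenitors and by chondrocytes were not told apart.

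Col11a2, the gene of the second collagen XI chain, stood far below Col11a1. The gene (chromosome 17, 34039437 to 34066685, plus strand) had 29, 33 and 33 counts in WT and 11, 4 and 8 in KO replicates 1 to 3. This was 1.85 ± 0.187 CPM in WT and 0.447 ± 0.21 CPM in KO (SD, n = 3), with no overlap. Its log2 fold change of -2.05 ± 0.49 (SE) did not pass (adjusted p = 0.0591, edgeR). DESeq2 (-2.07, adjusted p = 0.0111) and edgeR without the filter (-2.04, adjusted p = 0.0239) called it.

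Collagen XI is built from the products of Col11a1, Col11a2 and Col2a1, the third chain being a product of the Col2a1 gene. Per kb of transcript, Col11a1 stood at 11.9, 12.8 and 13.4 times Col2a1 in WT replicates 1 to 3 and at 11.9, 15.6 and 12.9 times in KO. The groups overlapped (exact two-sided permutation p = 0.80). Col11a1 per Col11a2 was 210 ± 26.7 in WT and 596 ± 223 in KO (SD, n = 3), resting on 4 to 11 counts of Col11a2 in KO. Col2a1 per Sox9 was 0.622 ± 0.0512 in WT and 0.953 ± 0.221 in KO, without overlap (exact two-sided permutation p = 0.10, the smallest possible). These ratios too were chosen after the values were seen.

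The promoters of the collagen XI genes are shown because both genes stood lower in every KO library. Col11a1 is at chr3:114030290-114030589 and Col11a2 at chr17:34038888-34039187, both on the plus strand. Capitals mark the GC boxes.
Col11a1: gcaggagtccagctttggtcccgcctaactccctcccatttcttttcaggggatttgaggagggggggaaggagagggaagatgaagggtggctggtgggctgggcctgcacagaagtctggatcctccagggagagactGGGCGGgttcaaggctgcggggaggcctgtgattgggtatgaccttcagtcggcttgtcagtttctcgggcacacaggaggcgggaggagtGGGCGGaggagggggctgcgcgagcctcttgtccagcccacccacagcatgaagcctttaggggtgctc
Col11a2: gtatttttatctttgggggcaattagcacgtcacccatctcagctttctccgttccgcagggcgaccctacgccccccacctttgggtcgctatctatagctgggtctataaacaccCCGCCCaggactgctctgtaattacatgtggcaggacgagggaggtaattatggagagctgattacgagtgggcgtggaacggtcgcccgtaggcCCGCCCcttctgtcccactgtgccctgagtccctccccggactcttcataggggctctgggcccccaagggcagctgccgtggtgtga
Each window held 2 GC boxes, 110 and 19 bases before the start base in Col11a1 and 133 and 38 bases before it in Col11a2. Neither held any of the 8 SOX words. The RefSeq start of Col11a1 is the start of the gene in the deposited table, and that of Col11a2 lies 299 bases before it.

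Acan and Hapln1, which together hold the aggrecan gel on hyaluronan, were near the limit of detection. Acan, the gene of the aggrecan core protein (chromosome 7, 79053483 to 79115099, plus strand), had 0, 2 and 1 counts in WT and 1, 0 and 0 in KO replicates 1 to 3. The WT sum was 3 in 51627953 counts, and the KO sum was 1 in 51373736. A count of 0 in a library allows up to 0.161 to 0.186 CPM (3 counts, counting error only), so no difference was detectable at this depth. Hapln1, the gene of the link protein (chromosome 13, 89539796 to 89611652, plus strand), had 6, 7 and 4 counts in WT and 7, 14 and 8 in KO, or 0.334 ± 0.108 and 0.572 ± 0.252 CPM (SD, n = 3). The groups overlapped. In the fit without the filter on low counts the Hapln1 log2 fold change was 0.75 ± 0.95 (SE; adjusted p = 0.732, edgeR).

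Within KO the members did not share 1 low library. Of the 9 members with more than 1 count in KO, 4 were lowest in KO replicate 2 (Comp, Col2a1, Col11a1 and Col11a2), 3 in KO replicate 1 (Sox5, Sox6 and Hapln1) and 2 in KO replicate 3 (Sox9 and Prg4). Sox5 and Hapln1 were highest in KO replicate 2. The members lie on 9 chromosomes, and none is on chromosome 9, which carries Ccrl2.

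**Figure D3:**
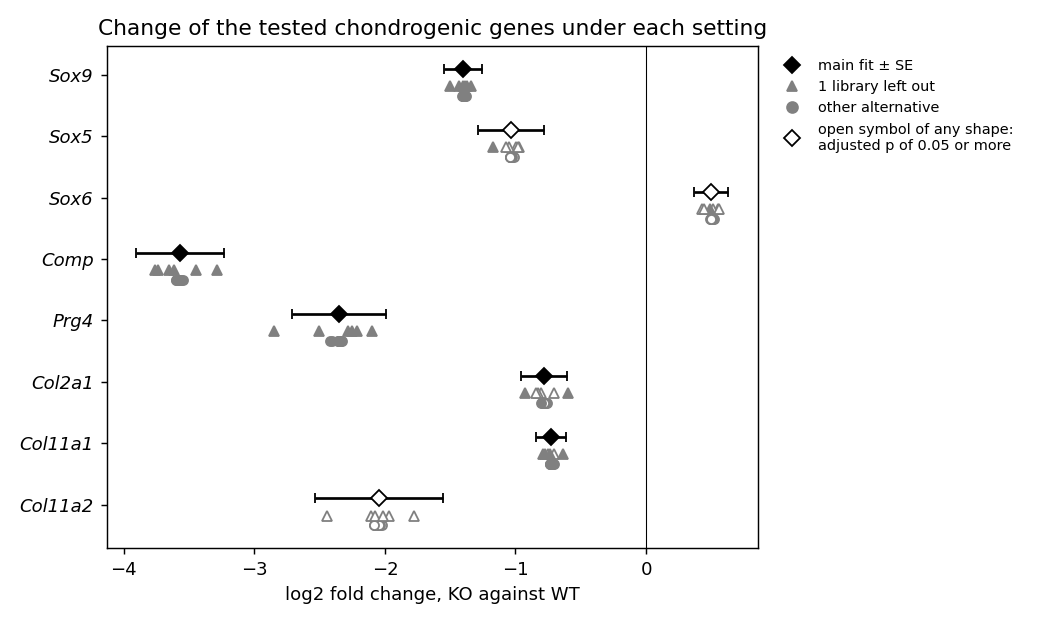
Log2 fold change of KO against WT (horizontal axis) for the 8 tested members, as the main edgeR fit with its SE (diamonds), with 1 library left out (triangles) and under the other alternatives (circles). Filled symbols have an adjusted p under 0.05, and each gene keeps its direction under all settings, with Comp, Prg4 and Sox9 filled throughout.

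Other genes of the cartilage program were taken from lists by role, and few of them were called. Among 9 further SOX genes, 6 were tested and 0 were called in edgeR, DESeq2 or limma-voom, with 0 at an unadjusted p under 0.05, and the one with the smallest p was Sox11, a factor of mesenchymal progenitors (0.36 ± 0.24, SE; adjusted p = 0.492, edgeR). Sox8, the relative of Sox9 in the same branch of the family, had 9, 1 and 3 counts in WT and 11, 10 and 9 in KO replicates 1 to 3, and was not tested. Sox10, the neural crest member of that branch, stood at 2.36 ± 0.104 CPM in WT and 3.18 ± 1.65 CPM in KO (SD, n = 3). Among 5 other cartilage collagens, Col27a1 alone was tested (0.29 ± 0.23, SE; adjusted p = 0.566, edgeR), and Col10a1, the collagen of hypertrophic chondrocytes, had 1 to 11 counts per library.

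Among 14 other cartilage matrix genes, 4 were tested and none called in edgeR, with 2 at an unadjusted p under 0.05 (Prelp and Cilp), both of which DESeq2 called lower. Prelp, a leucine-rich proteoglycan that is abundant in these cells (1075 ± 134 CPM in WT and 726 ± 99.9 CPM in KO, SD, n = 3), came nearest, with a log2 fold change of -0.59 ± 0.14 (SE; adjusted p = 0.0560, edgeR). Prelp passed without KO replicate 2 (-0.48, adjusted p = 0.0187) and without WT replicate 3 (-0.70, adjusted p = 0.0498), and also with DESeq2 (adjusted p = 0.00387) and without the filter (adjusted p = 0.000345, edgeR). Of the 14, 5 were at 0 counts in every library (Matn1, Snorc, Epyc, Clec3a and Mia). Among 10 genes of hyaluronan, its proteoglycans and link proteins, 7 were tested, with 0 at an unadjusted p under 0.05 and 0 called by edgeR, DESeq2 or limma-voom. Versican (Vcan), the large proteoglycan of loose mesenchyme, stood at 543 ± 4.76 CPM in WT and 647 ± 59.5 CPM in KO (0.23 ± 0.11, SE; adjusted p = 0.364, edgeR). Per kb, Vcan was at 37.6 and Acan at 0.00798 CPM per kb in WT.

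Of the other thrombospondin genes, the family to which Comp belongs, 1 of 4 was called. Thbs4, which encodes another pentameric thrombospondin, found in tendon and muscle, had 830, 704 and 661 counts in WT and 331, 230 and 316 in KO replicates 1 to 3. All KO libraries were below all WT libraries, and Thbs4 fell (-1.35 ± 0.17 on the log2 scale, SE; adjusted p = 0.00169, edgeR), a call kept in all 15 alternatives. Thbs1 (-0.29), Thbs2 (-0.09) and Thbs3 (-0.30 on the log2 scale) were not called.

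Among regulators of cartilage formation, calls depended on the tool and on single libraries. Of 13 genes 8 were tested, 5 with positive and 3 with negative values. In edgeR 0 were called, with 5 at an unadjusted p under 0.05, and DESeq2 called 1, Creb5. Creb5, a factor of the CREB family, had the smallest p and a positive value (0.80 ± 0.23, SE; adjusted p = 0.113, edgeR), which passed without KO replicate 1 (0.97, adjusted p = 0.0420), with DESeq2 (adjusted p = 0.0396) and without the filter (adjusted p = 0.0201, edgeR). Runx3, a transcription factor of the RUNX family, was called higher without KO replicate 2, which stood at 11.1 CPM against 25.3 and 22.1 CPM in KO replicates 1 and 3; with all libraries its value was 0.47 ± 0.28 (SE; adjusted p = 0.458, edgeR). Of 7 growth plate and hypertrophic genes, 4 were tested, all with positive values. In edgeR 0 were called, with 3 at an unadjusted p under 0.05, and DESeq2 called 2, Pth1r and Mmp13. Pth1r, the receptor of parathyroid hormone-related protein, stood at 15.2 ± 2.45 CPM in WT and 24.7 ± 1.21 CPM in KO (SD, n = 3), with no overlap, and did not pass (0.68 ± 0.16, SE; adjusted p = 0.0537, edgeR). With library totals as the scale it passed (0.70, adjusted p = 0.0408), as it did with DESeq2 (adjusted p = 0.00721) and without the filter (adjusted p = 0.00533, edgeR). Without KO replicate 2, Pth1r (0.68, adjusted p = 0.0190, edgeR) and Mmp13, a collagenase, were called.

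Genes that build chondroitin sulfate, the sugar chain of aggrecan and versican, were mostly not called. Of 26 genes 25 were tested and 2 were called lower, a share to be read beside the 2.31% of all tested genes. Chst13, a chondroitin sulfotransferase, had 304, 259 and 326 counts in WT and 158, 77 and 161 in KO replicates 1 to 3 (-1.19 ± 0.23, SE; adjusted p = 0.0252, edgeR). Leaving out any one WT library or KO replicate 3 ended this call (adjusted p from 0.0795 to 0.127). Csgalnact1, which starts and extends the chain, had 384, 377 and 356 counts in WT and 183, 180 and 297 in KO (-0.79 ± 0.18, SE; adjusted p = 0.0470, edgeR). That call ended with library totals as the scale (adjusted p = 0.0513), with limma-voom or no robust moderation, and when any one WT library or KO replicate 1 was left out (adjusted p from 0.0887 to 0.244). The median log2 fold change over the 25 was -0.12.

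The list of cartilage matrix proteases, which also includes the inhibitor gene Timp3, held 3 called genes among 8 tested of 9. The proteases Adamts5 and Adamts12 were called lower and Timp3 higher, beside 2.31% lower and 0.365% higher over all tested genes. Adamts5, the main aggrecanase of mouse cartilage, had 4537, 4332 and 4377 counts in WT and 1914, 2161 and 2312 in KO replicates 1 to 3. The level fell from 257 ± 15.2 to 124 ± 8.71 CPM (SD, n = 3), with a log2 fold change of -1.07 ± 0.11 (SE; adjusted p = 0.000469, edgeR). Adamts12, a protease that cleaves COMP, had 3881, 3655 and 3667 counts in WT and 1834, 2425 and 2785 in KO (-0.69 ± 0.14, SE; adjusted p = 0.0240, edgeR), and its call ended when WT replicate 1, WT replicate 2 or KO replicate 3 was left out (adjusted p from 0.0726 to 0.132). Timp3, an inhibitor of ADAMTS5 that binds to the matrix, rose from 75.2 ± 4.05 to 146 ± 19.8 CPM (0.94 ± 0.12, SE; adjusted p = 0.00225, edgeR). Adamts5 and Timp3 were called under all 15 alternatives. Adamts4, the other well-studied aggrecanase, had 206 to 285 counts per library and a log2 fold change of -0.07 ± 0.17 (SE; adjusted p = 0.866, edgeR).

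**Figure D4:**
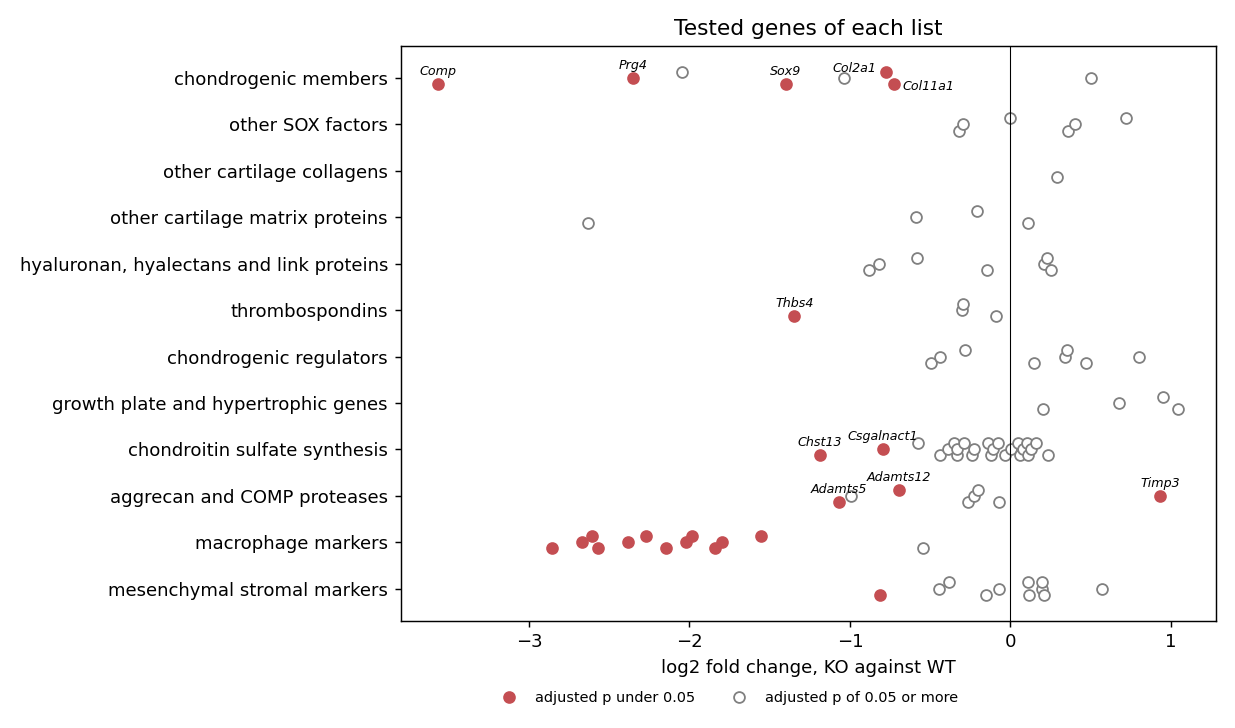
Log2 fold change of KO against WT (horizontal axis) for each tested gene of the lists by role and of the macrophage and stromal markers (rows; the vertical offset within a row carries no value). Red points have an adjusted p under 0.05 in edgeR: 5 of the 8 tested members, Thbs4, Chst13, Csgalnact1, Adamts5, Adamts12 and Timp3, 12 macrophage markers and 1 stromal marker.

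Genes whose pattern over the 6 libraries was most like that of Sox9 or Comp were found by Pearson correlation of log2 CPM, given as a description since all libraries share the difference between the genotypes. For Sox9 they were Ccbe1 (r = 0.9997), Igfbp6 (0.998), Arhgap9 (0.997), Mlph (0.997) and Limch1 (0.996). Ccbe1, a secreted factor of lymphatic growth, stood at 73.5 CPM in WT and 25.6 CPM in KO, and Igfbp6, an IGF binding protein, at 134 and 34.8 CPM. For Comp they were Itgb2 (0.999), Rab15 (0.998), Il1r1 (0.998), Hspb7 (0.998) and Klf15 (0.998). Itgb2, the integrin chain of leukocytes, stood at 11.2 CPM in WT and 2.01 CPM in KO. None of these 10 genes belongs to the lists of cartilage genes above. The tendon and periodontal ligament markers Scx, Tnmd, Mkx, Egr1, Tnc, Postn, Fmod and Aspn, which mark tissues that also make COMP, included 7 tested genes. In edgeR 0 of these were called, with 3 at an unadjusted p under 0.05, while DESeq2 called 2 (Aspn and Fmod). Aspn, the gene of the matrix protein asporin, was called higher by edgeR without KO replicate 1 (0.75, adjusted p = 0.0264), without KO replicate 2 (0.46, adjusted p = 0.0288) and without the filter (adjusted p = 8.96e-05), against 0.63 (adjusted p = 0.0716) with all libraries. The summed level of these markers was 8269 to 8960 CPM in WT and 8702 to 9282 CPM in KO. Most of it was Postn (6618 ± 422 CPM in WT and 7214 ± 310 CPM in KO, SD, n = 3). Fmod (-0.45) and Tnc (-0.33 on the log2 scale) were lower in every KO library, and Aspn was higher in every KO library. Tnmd, a marker of mature tendon cells, was too low to test, with 13, 8 and 16 counts in WT and 0, 2 and 3 in KO.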

How the data were processed

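RNA of 6 cultures was measured, 3 WT and 3 KO, grouped and numbered by sample title. Per the labels' protocols, TRIzol was used for the RNA and an NEBNext Ultra kit for the libraries. Strand is not stated to have been kept. Per the submitters' processing notes the build was mm9 and the tools included HISAT2, SAMtools and StringTie. Which tool counted the reads is not given there. The authors deposited raw whole-number counts per gene in 1 table, with a gene length of another kind (bases) and coordinates. All 6 column names hold "Ctrl", a term that the sample labels lack and do not explain. GENCODE M21 lists 54495 of the identifiers, 98.33% of them (and all 10 members) at identical coordinates, so positions are given as GRCm38.

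KO was compared with WT by edgeR 4.0.16 (R 4.3.3), using its robust quasi-likelihood test on genotype alone, TMM scaling (factors 0.982 to 1.01) and a filter (filterByExpr, minimum count 10, minimum total 15). Benjamini-Hochberg adjustment covered all 13705 tested genes. SE is derived from F, as the size of the log2 fold change over its square root. Levels are CPM of the library total, mean ± SD. Promoter sequences come from RefSeq (GRCm38.p6). With 3 against 3 libraries an exact permutation test cannot go below p = 0.10. The members and lists were chosen with earlier results of these data known. The rule for names took all members, of each list the up to 3 called genes of smallest p or else the 1 gene of smallest p, and 5 genes each most like Sox9 and Comp. Other named genes were chosen after their values were seen. Alternatives were library totals alone, DESeq2 size factors or upper-quartile scaling in edgeR, no filter, a stricter filter (50 counts in 3 libraries), DESeq2 1.42.0, limma-voom (limma 3.58.1), no robust moderation, a block for replicate number, and each library left out. For named genes other than members, the alternatives were added after seeing the data. Replicates differed beyond sampling noise (chi-square per gene 4.52 to 62.0 within groups).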

Additional observations from a re-analysis of the deposited data

How the results depend on the processing

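All 8 tested members kept their direction under every alternative run. Of 119 values of members under the alternatives, 101 stayed on their side of the threshold, 10 lost it (Col2a1 and Col11a1) and 8 gained it (Sox5, Sox6 and Col11a2). The count of called genes was 883 (258 higher, 625 lower) without the filter on low counts and 656 with DESeq2, against 366, and 8 members were called under each of these. With 1 library left out, 147 to 610 genes and 3 to 7 members were called. The lowest counts were without WT replicates 1 (158 genes, 3 members) and 2 (147 genes, 3 members), the highest without KO replicate 2 (610 genes, 7 members), and KO replicate 3 (182) and WT replicate 3 (211) also lowered the count of genes. The cause was not tested. Deviations of same-numbered WT and KO libraries were weakly correlated, with mixed signs (r = 0.137, -0.106 and -0.192 for replicates 1 to 3). No label says whether the numbers pair the libraries. With so few libraries, and KO replicate 2 far from the others, these values cannot settle it. With the replicate block 331 genes and 5 members were called, and Csgalnact1 lost its call (adjusted p = 0.0510, edgeR). Depth limits Acan and Hapln1, and the KO levels of Comp and Col11a2, which rest on 4 to 16 counts.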
